A study of Mus musculus with 21 samples.

Results

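The 7 untreated mouse libraries whose deposited names begin with con or ko form the con/ko set, 7 of the 21 bulk RNA libraries made from dorsal root ganglia (DRG), which hold the cell bodies of sensory neurons. The 4 libraries named ko came from Tmem45b-flox::Mrgprd-cre mice (conditional knockout, cKO, replicates 4 to 7), and the 3 named con from Tmem45b-flox mice (flox, replicates 4 to 6). Both groups carry the floxed Tmem45b gene, and Cre recombinase, expressed from the Mrgprd locus or its promoter as the name of the line says, is the only difference between them that the titles state. The other untreated libraries form the LDRG set, named for the letters in their codes, with 3 cKO and 3 flox libraries, and 8 more libraries belong to a CFA model. Treatment is not named for the con/ko or LDRG libraries, and age, strain and pooling are not given. Genotype was taken from the sample titles, with which the library names go; the genotype field of the labels instead lists the Cre line for all 21 libraries, flox ones included, and this conflict touches every cKO and flox value below.

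Cre recombinase cuts out DNA between loxP sites, so in these mice Tmem45b is meant to be lost in cells that have expressed Mrgprd and kept elsewhere. Mrgprd encodes a receptor that marks the nonpeptidergic nociceptors called NP1, which send fine fibres to the skin and are known for roles in pain and itch. Tmem45b encodes a protein predicted to span the membrane several times. The series title ties it to itch and to calcium in the endoplasmic reticulum, the cell's internal calcium store, which is filled by SERCA pumps and emptied through ryanodine and IP3 receptors.

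Each library name carries a first letter, F or M, and a second letter, C or L, neither spelled out in the labels. F stood in 2 cKO and 2 flox libraries and M in 2 cKO libraries and 1 flox library. Xist, an RNA made from the inactive X chromosome of females, lay between 301 and 339 CPM (reads counted for a gene as a share of the library's total, scaled by TMM) in the 4 libraries coded F and at 0.217 CPM or below in the 3 coded M. The second letter goes partly with genotype: C stood in 3 of 4 cKO libraries but in 1 of 3 flox libraries, cKO replicate 7 and flox replicates 5 and 6 being coded L. Every result is therefore given for genotype alone and, where it matters, at equal second letter (the same model with that letter as a term). Library totals ranged from 53.36 M to 65.64 M counts. The pan-neuronal list (Rbfox3, Tubb3, Snap25 and 9 others) summed to 10976, 10852, 11171 and 10928 CPM in the cKO libraries and 10016, 10480.4 and 9397 CPM in the flox libraries, and satellite glial and Schwann cell genes were present in all 7 libraries. Replicates differed from each other by more than sampling noise (chi-square per degree of freedom 28.8 to 151). The labels do not tell separate animals from repeat libraries, so the p-values rest on a spread that may be partly technical. In bulk RNA, fewer cells of a type and less RNA per cell cannot be told apart.

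The first comparison asked whether the targeted gene was lower in knockout ganglia. Tmem45b had 80.0, 92.1, 72.4 and 89.6 CPM in the cKO libraries and 157, 188 and 163 CPM in the flox libraries, here and below in order of replicate number. All 4 cKO libraries lay below all 3 flox libraries, with means of 83.5 ± 9.04 CPM in cKO libraries (SD, n = 4) and 169 ± 16.4 CPM in flox libraries (SD, n = 3). The difference was -1.02 on the log2 scale (SE 0.10, adjusted p = 0.012) in edgeR's quasi-likelihood test with Benjamini-Hochberg adjustment, the test behind every adjusted p given here. It was -0.96 (adjusted p = 0.023) at equal letter, -1.002 among F libraries, -0.98 among L libraries and -0.94 among C libraries, none of the last 3 passing the test (adjusted p = 0.19 to 0.27). The call also ended without flox replicate 6 (adjusted p = 0.0502) and without cKO replicate 4 (adjusted p = 0.071). By exact permutation, p was 0.0571 (two-sided), the smallest that 4 against 3 libraries can give.

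Tmem45b (chr9:31426196-31464462, minus strand, build mm10) stood at about the same level in cKO libraries of both letters, at 72.4 to 92.1 CPM in those coded C and 89.6 CPM in the one coded L. Which exons lie between the loxP sites is not stated, and the gene total also holds reads of undeleted sequence and of cells without Cre. Of its relatives, Tmem45a had 1.36, 2.31, 1.41 and 0.765 CPM in cKO against 2.47, 2.46 and 2.48 CPM in flox libraries (-0.76 on the log2 scale, SE 0.35, adjusted p = 0.78), with replicate 5 of cKO close to the flox level. Tmem45a2 was near the limit of detection, at 0.124 to 0.437 CPM in cKO and 0.121 to 0.202 CPM in flox libraries. Within 10 Mb of Tmem45b, 0 of 107 tested genes were called by edgeR, and 8 had an unadjusted p under 0.05. Over all genes 0.243% were called and 1088 of 16481 had such a p.

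Mrgprd (chr7:145314835-145324086, plus strand), the gene that drives Cre, had 103, 70.8, 114 and 134 CPM in the cKO libraries and 97.0, 134 and 145 CPM in the flox libraries. The groups overlapped, and the highest cKO value was that of the library coded L, as were the higher 2 of 3 flox values. Its difference was -0.25 on the log2 scale (SE 0.22, adjusted p = 0.91) without the letter and -0.04 (adjusted p = 1) with it. By exact permutation p was 0.457 (two-sided). Within 10 Mb of Mrgprd, 1 of 123 tested genes was called, Tnnt3 (a muscle gene described below), and 16 had an unadjusted p under 0.05. Within 5 Mb these were 1 and 15 of 95. Over all genes 0.243% were called and 1088 of 16481 had such a p. The cause of the larger share near Mrgprd was not tested. In the plot of 8 genes by library, Tmem45b separates the groups and Mrgprd does not.

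**Figure D1:**
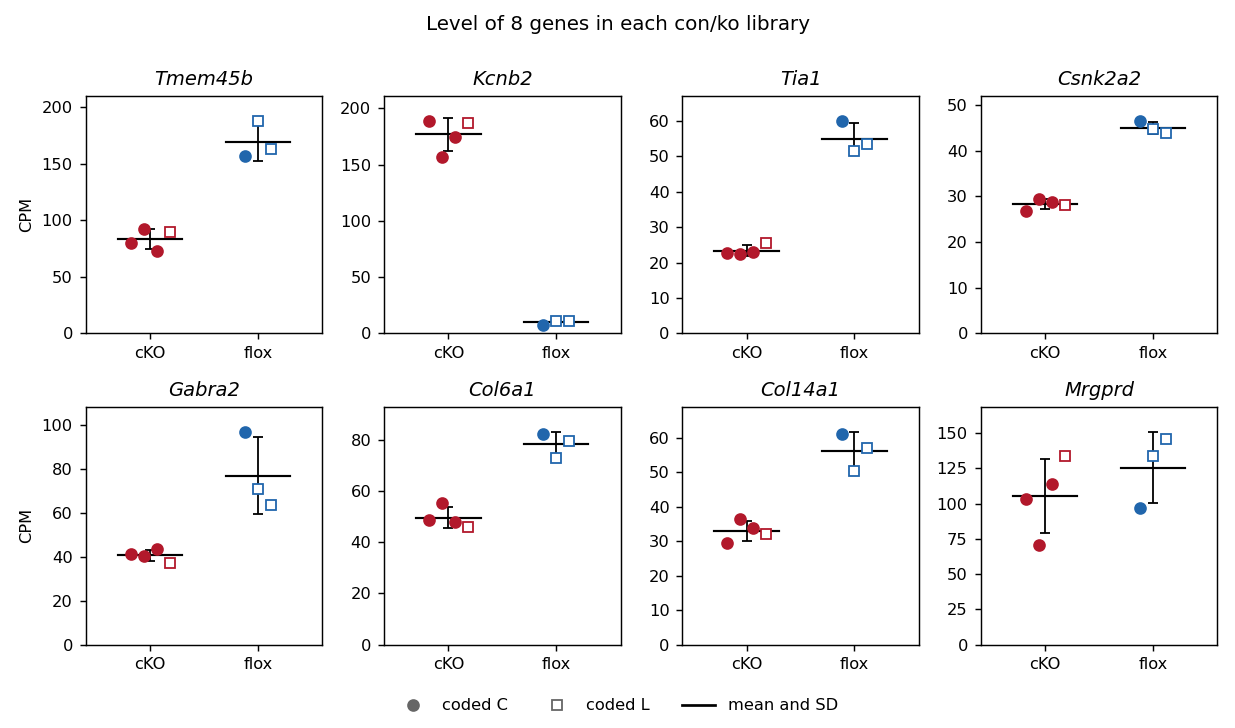
CPM of 8 genes in each con/ko library, cKO on the left of each panel and flox on the right, with filled circles for libraries coded C, open squares for L, and lines for the mean and SD (n = 4 cKO, n = 3 flox). Kcnb2 lies at 156 CPM or above in cKO and at 10.8 CPM or below in flox libraries, Mrgprd overlaps, and the other 6 genes lie lower in every cKO library.

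Across the 16481 genes tested, 40 differed between cKO and flox ganglia (0.243% of those tested): 39 fell (0.237%) and 1, Kcnb2, rose. Of the 39, 30 were counted as genes of skeletal muscle, 3 encoded collagens, and the others were Tmem45b, Tia1, Csnk2a2, Itih5, Atp10d and Sypl2. Sypl2 is also a gene of the muscle triad (below), but was not counted among the 30. At equal letter 49 were called (0.297%), again with Kcnb2 as the 1 that rose, and 33 were shared with the 40. All 40 kept their sign at equal letter. The unadjusted p was under 0.05 for 1088 genes, where chance gives 824. Every cKO library lay below every flox library for 708 genes (4.3%) and above it for 584 (3.54%). Taking the letters apart gave 36 calls among the C libraries (3 cKO, 1 flox; 24 lower), and 21 among the L libraries (1 cKO, 2 flox; 17 lower), where a lone library is assumed to vary like the other group.

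Skeletal muscle genes made up most of what fell. Muscle contracts when calcium from the sarcoplasmic reticulum lets myosin pull on actin, in units built on titin, nebulin and the Z disc, with creatine kinase renewing the ATP. Acta1, skeletal muscle actin, had 1.27, 2.06, 1.30 and 2.15 CPM in the cKO libraries and 121, 124 and 215 CPM in the flox libraries. Atp2a1, the SERCA pump of fast muscle fibres, had 0.491, 0.759, 0.931 and 2.06 CPM in cKO against 82.1, 139.8 and 144 CPM in flox libraries. Ckm, muscle creatine kinase, had 0.321, 0.619, 0.248 and 1.48 CPM in cKO against 44.6, 81.2 and 94.5 CPM in flox libraries. All 3 were nearly absent from every cKO library, of either letter, and present in every flox library. The difference of Acta1 was -6.49 on the log2 scale (SE 0.31, adjusted p = 0.00036), and -6.29 (adjusted p = 0.00025) at equal letter. For Atp2a1 it was -6.83 on the log2 scale (SE 0.48, adjusted p = 0.0034), and -6.47 (adjusted p = 0.00013) at equal letter. For Ckm it was -6.76 on the log2 scale (SE 0.62, adjusted p = 0.0085), and -6.35 (adjusted p = 0.00047) at equal letter. Atp2a1 overlaps Rabep2 on the genome, and Tnnt3 (below) overlaps Prr33, so without known strand such a pair can share reads.

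Upstream sequences are shown for 3 of these genes that fell together, since the muscle genes are known targets of serum response factor, which binds the CArG box, and of MEF2 and the MyoD family, which binds the E-box (CANNTG). Each runs from 250 bases before to 50 after the start in RefSeq (GRCm38.p6), and capitals mark a CArG box, a MEF2 site or a TATA box (spelled TATAAA in the search). The window of Acta1 lies at chr8:123894726-123895025, minus strand, Xirp2 at chr2:67445752-67446051, plus strand and Ttn at chr2:76982498-76982797, minus strand.
Acta1: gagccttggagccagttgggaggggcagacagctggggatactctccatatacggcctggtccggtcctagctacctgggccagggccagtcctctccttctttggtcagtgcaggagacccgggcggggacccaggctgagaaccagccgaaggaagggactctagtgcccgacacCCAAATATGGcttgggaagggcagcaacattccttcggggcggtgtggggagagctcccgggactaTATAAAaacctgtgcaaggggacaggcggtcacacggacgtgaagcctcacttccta
Xirp2: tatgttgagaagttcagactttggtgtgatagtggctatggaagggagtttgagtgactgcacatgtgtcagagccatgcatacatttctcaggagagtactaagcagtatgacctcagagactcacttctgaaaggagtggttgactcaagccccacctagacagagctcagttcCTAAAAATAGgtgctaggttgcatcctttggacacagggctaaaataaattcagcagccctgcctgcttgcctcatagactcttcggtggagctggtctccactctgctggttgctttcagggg
Ttn: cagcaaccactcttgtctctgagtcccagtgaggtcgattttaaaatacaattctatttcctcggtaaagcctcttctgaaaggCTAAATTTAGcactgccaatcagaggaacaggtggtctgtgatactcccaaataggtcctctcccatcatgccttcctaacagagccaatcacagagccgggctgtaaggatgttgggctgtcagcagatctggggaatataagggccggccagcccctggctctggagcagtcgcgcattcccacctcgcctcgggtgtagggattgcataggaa
Acta1 holds a CArG box and a TATA box, and Xirp2 and Ttn hold a MEF2 site. Of the 30 muscle genes that fell, 23 had such a window, searched on both strands: 1 held a CArG box (Acta1), 6 a MEF2 site (Pgam2, Mylk4, Synpo2l, Xirp2, Klhl41 and Ttn), 20 an E-box and 2 a TATA box (Acta1 and Trim63). Among 32851 promoters of the same length the shares were 1.63%, 3.19%, 72.3% and 13.6%. Motifs can overlap, and a match is a description of letters, not a site in use.

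Of 38 contractile genes, all tested, 14 fell and 0 rose, against 0.237% of all genes that fell. Their median difference was -5.38 on the log2 scale, where that of all genes was 0.01. For 31 of the 38 every cKO library lay below every flox library (4.3% of all genes). 13 of the 38 had 10 or more counts in fewer than 3 cKO libraries and so were kept for the test by flox libraries, so these figures describe the list and add no support. Ttn, the spring protein titin, had 1.06, 0.619, 0.962 and 1.70 CPM in cKO against 42.1, 45.8 and 93.4 CPM in flox libraries (-5.80 on the log2 scale, SE 0.43, adjusted p = 0.004). Xirp2, an actin-binding protein of muscle, had 0.113, 0.217, 0.217 and 0.281 CPM in cKO against 7.34, 11.4 and 23.5 CPM in flox libraries (-6.06 on the log2 scale, SE 0.49, adjusted p = 0.0058). Myoz1, which anchors calcineurin at the Z disc, had 0.208, 0.263, 0.233 and 0.156 CPM in cKO against 9.04, 11.6 and 12.6 CPM in flox libraries (-5.67 on the log2 scale, SE 0.23, adjusted p = 0.00016). In these 3 genes every cKO value was a small part of every flox value. Tnnc2, the calcium sensor of fast fibres, had 0.0945, 0, 0.0621 and 0.156 CPM in cKO against 4.18, 4.32 and 3.67 CPM in flox libraries (-5.67 on the log2 scale, SE 0.71, adjusted p = 0.034), and overlaps Ube2c on the genome, so without known strand their reads cannot be told apart. Tnnt3, fast troponin T, had 0, 0.728, 0.559 and 2.34 CPM in cKO against 64.2, 99.7 and 84.8 CPM in flox libraries (-6.49 on the log2 scale, SE 0.89, adjusted p = 0.048). In both the groups were again apart, and among these 5 genes cKO replicate 7, coded L, had the highest cKO value in Ttn, Xirp2, Tnnc2 and Tnnt3.

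Summed over the contractile list, the level was 336, 358, 369 and 380.4 CPM in the cKO libraries and 1057, 1224 and 1851 CPM in the flox libraries. The groups do not overlap, and within the flox group the library coded C was the lowest. Of 17 tested genes of muscle energy supply 3 fell, namely Ckm, Pgam2 (-2.30) and Eno3 (-1.64), both enzymes of glycolysis, with sums of 783, 767, 756 and 711 CPM in the cKO libraries and 946, 944 and 1006 CPM in the flox libraries. Of 21 tested genes that couple the nerve impulse to calcium release 5 fell, with sums of 176, 158, 191 and 178 CPM in the cKO libraries and 337, 376 and 440.0 CPM in the flox libraries. Of all genes 0.237% fell. In the energy list 3 of 17 genes, and in the coupling list 2 of 21, had 10 or more counts in fewer than 3 cKO libraries. Those were kept for the test by flox libraries, so both counts describe the lists and add no support. Beyond these lists fell Rpl3l, the muscle form of a ribosomal protein, with 0 counts in every cKO library against 2.24, 1.56 and 3.87 CPM in flox libraries, which puts it at least 211-fold lower (0 against 498 counts, with a floor of 3 counts over the cKO group; adjusted p = 0.039). Its call ended at equal letter (adjusted p = 0.088). Mylk4, Klhl31, Klhl41, Txlnb, Ankrd23 and Synpo2l, all expressed in striated muscle, fell, with log2 differences between -5.19 and -2.11. Rpl3l and Klhl31 reached 10 counts in no cKO library. Of the 30 called muscle genes 4 had 10 or more counts in fewer than 3 cKO libraries. All 4 were kept for the test by flox libraries, so their calls describe these genes and add no support.

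Of 9 tested genes of muscle precursors 1 fell, Des, the filament protein desmin shared with smooth muscle, with 2.67, 2.38, 2.84 and 2.72 CPM in cKO against 16.6, 13.2 and 26.4 CPM in flox libraries (-2.82 on the log2 scale, SE 0.24, adjusted p = 0.0067), and the list's median was -0.18. Myf6, a MyoD family factor kept on in adult muscle, had 0 counts in all cKO libraries and 110 counts in flox libraries, at least 46.5-fold lower, with adjusted p = 0.12. Myf6 was kept for the test by flox libraries alone, so its values add no support. Smooth muscle and pericyte genes had Des as their 1 of 15 called, with a median of -0.16 (-0.22 at equal letter), and DESeq2 called Rgs5, Abcc9, Des and Synpo2. Of all genes 0.237% fell by edgeR, and DESeq2 called 216 of 16481, 182 of them lower. Des is also in the contractile list, so the calls of these lists are not separate. The smooth muscle and pericyte sum was 333, 357, 385 and 364 CPM in the cKO libraries and 441, 423 and 480.4 CPM in the flox libraries, without overlap. Adipocyte genes, 0 of 10 called by edgeR, 1 (Car3, also in the muscle energy list) by DESeq2 and 1 at an unadjusted p under 0.05, had a median of -0.62 and summed to 36.7, 39.4, 31.8 and 53.8 CPM in the cKO libraries and 54.0, 75.2 and 97.7 CPM in the flox libraries, the closest libraries nearly touching. In the con/ko set both lists had medians below 0, as the contractile list did. In the LDRG set the medians were -0.95 for adipocyte, -0.10 for smooth muscle and pericyte, and 0.31 for contractile genes. The part of these lists in the result was not tested.

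Some muscle genes were called only with or only without the letter as a term. Myh4, the fastest myosin heavy chain, had 0.643, 0.418, 0.465 and 3.60 CPM in cKO against 16.8, 227 and 192 CPM in flox libraries and was not called without the letter (adjusted p = 0.1), but passed with it (-5.49, adjusted p = 0.0002), its C libraries lying below L libraries of the same genotype (-3.30, adjusted p = 0.0034). Mylk2, Tnni2, Ampd1, Mylf-ps (a pseudogene of Mylpf that could take its reads), Myom2 and Pdlim3 were also called at equal letter alone, without passing between letters (adjusted p = 0.055 to 0.61), while Mybpc2, Neb, Rpl3l, Klhl41, Txlnb and Synpo2l were among those called without it alone. Myh4 was the 1 of 38 contractile genes called between letters, and the contractile median was -4.92 for genotype at equal letter and -0.48 for C over L. Leaving out each library in turn, 14 of the 40 calls stood in all 7 fits, 12 of them muscle genes (Acta1, Atp2a1, Ckm, Ttn, Xirp2, Myoz1, Mylpf, Ryr1, Casq1, Des, Pgam2 and Trim63), with Kcnb2 and Tia1. Trdn, Synpo2l and Itih5 were called in none of the 7.

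**Figure D2:**
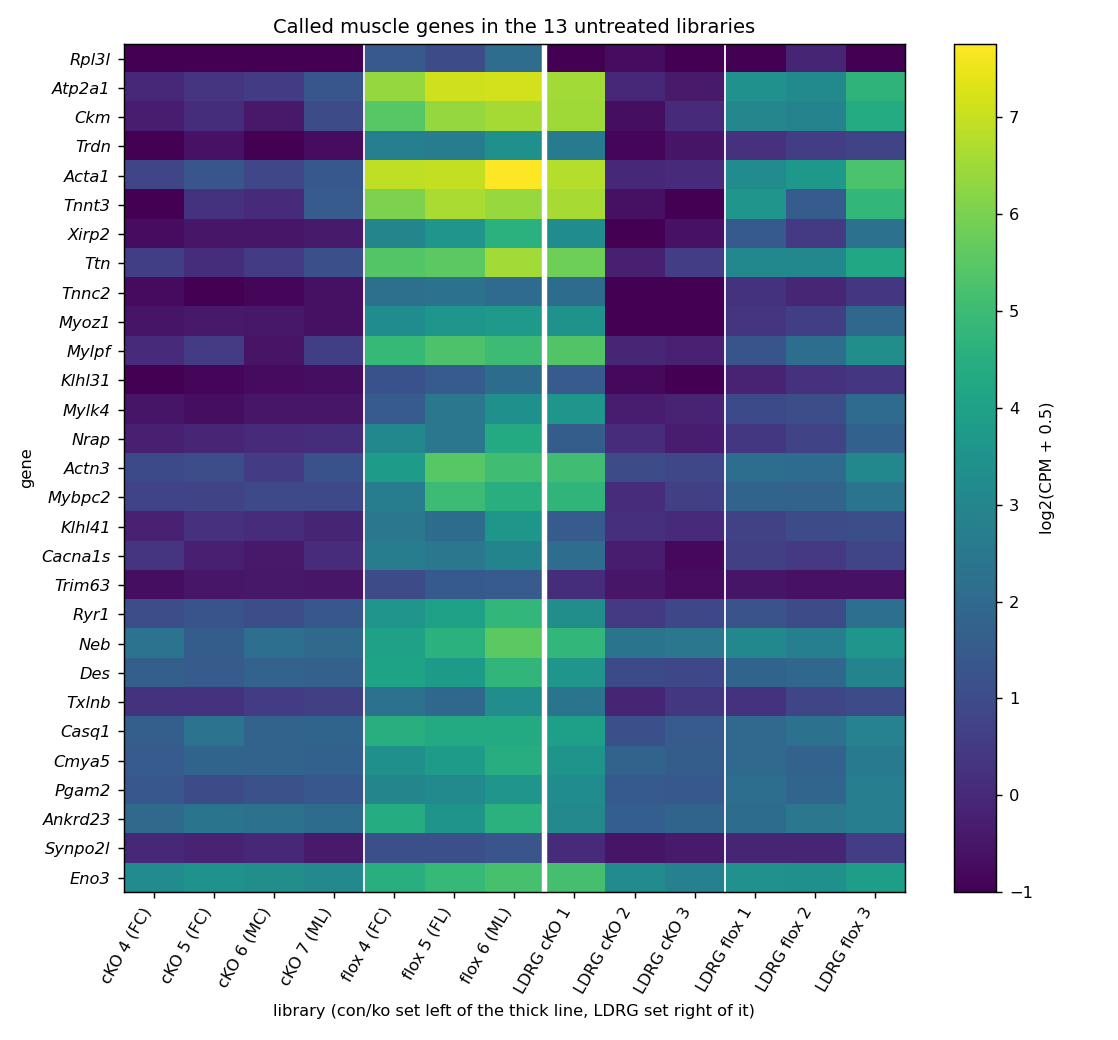
Level of 29 of the 30 called muscle genes, as log2(CPM + 0.5) on the colour scale, in the con/ko libraries (left of the thick line, cKO then flox) and in the LDRG libraries (right of it, cKO then flox). In every row the 4 con/ko cKO cells are darker than the 3 flox cells, while in the LDRG set 1 cKO library is bright in most rows and the other 2 are dark.

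The series title points to endoplasmic reticulum calcium. Of 45 tested genes of calcium storage and release in that organelle 5 fell and 0 rose, against 0.237% of all genes that fell, and all 5 are forms that skeletal muscle uses: Atp2a1 (above), the release channel gene Ryr1, the calcium buffer gene Casq1, Trdn (triadin, which holds them together) and Sypl2 (mitsugumin, of the muscle triad). Ryr1 had 1.59, 1.92, 1.63 and 2.08 CPM in cKO against 11.4, 15.8 and 27.2 CPM in flox libraries (-3.33 on the log2 scale, SE 0.30, adjusted p = 0.0081). Casq1 had 2.67, 4.60, 2.93 and 3.01 CPM in cKO against 22.1, 19.8 and 20.1 CPM in flox libraries (-2.64 on the log2 scale, SE 0.20, adjusted p = 0.004). In both genes no cKO value came near a flox value. Trdn had 0, 0.170, 0 and 0.109 CPM in cKO against 6.32, 6.03 and 10.04 CPM in flox libraries (-6.66 on the log2 scale, SE 0.91, adjusted p = 0.048). Sypl2 had 0.321, 0.201, 0.124 and 0.156 CPM in cKO against 1.80, 2.04 and 3.41 CPM in flox libraries (-3.59 on the log2 scale, SE 0.41, adjusted p = 0.023). The call of Trdn ended without any 1 of the 7 libraries (adjusted p = 0.0501 to 0.19), and that of Sypl2 stood only without cKO replicate 4 (-3.90, adjusted p = 0.040) and otherwise ended (adjusted p = 0.05001 to 0.092). Some other calcium store genes, picked with their values in view, did not pass. The pump gene Atp2a2 stood at 0.03, with 521, 425, 541 and 490.4 CPM in cKO against 459, 479.6 and 510.3 CPM in flox libraries. Further log2 differences were 0.03 for Ryr2 and 0.05 for Ryr3, -0.18 for the IP3 receptor gene Itpr1, -0.01 for the store sensor Stim1 and -0.02 for the channel gene Orai1. The list's median was -0.05, and -0.09 at equal letter. Every cKO library lay below every flox library for 11 of the 45 (4.3% of all genes) and above for 1 (3.54% of all genes). DESeq2 called 9 of the 45, all lower, where over all genes it called 216 of 16481, 182 of them lower. Apart from Sypl2, each of the 9 was also in the list of muscle genes that couple the nerve impulse to calcium release. Trdn had 10 or more counts in fewer than 3 cKO libraries and so was kept for the test by flox libraries. Summed levels of contractile genes, given above, moved with these 5, and their part in the result was not tested.

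Kcnb2 was 18.4-fold higher in the cKO than in the flox libraries of the con/ko set, the 1 rise called. It encodes Kv2.2, a delayed-rectifier potassium channel that helps repolarise neurons (chr1:15287254-15723750, plus strand). Its level was 189, 156, 175 and 187 CPM in the cKO libraries and 7.56, 10.8 and 10.5 CPM in the flox libraries, a mean of 177 ± 14.9 CPM in cKO libraries (SD, n = 4) and 9.61 ± 1.78 CPM in flox libraries (SD, n = 3). The groups were far apart in both letters. The difference was 4.20 on the log2 scale (SE 0.15, adjusted p = 0.00014) and 4.33 (adjusted p = 5.9e-05) at equal letter, and it was called among F libraries taken alone (4.23). L libraries (4.13, 1 cKO library) and C libraries (4.52, 1 flox library) also gave calls, which assume that the lone library varies like the other group. It was the 1 gene called of 27 tested for voltage-gated potassium channels. The smallest p after Kcnb2 belonged to Kcns3, a silent subunit that joins Kv2 channels (0.17, adjusted p = 0.72). The list's median was 0.05. In the LDRG set Kcnb2 lay at 10.9, 9.95 and 10.2 CPM in LDRG cKO and 10.6, 8.63 and 9.23 CPM in LDRG flox libraries, the level of the con/ko flox libraries. In the CFA model it was high in flox replicate 1 (243 CPM) and cKO replicate 4 (276.5 CPM, both scaled by plain totals). The other CFA libraries of both genotypes were low, so the high level did not go with genotype there.

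Genes of collagens, the fibres of the tissue around nerve and muscle cells, were the other group that fell. Of 22 fibroblast and collagen genes 3 fell, against 0.237% of all genes. Col6a1 had 48.9, 55.6, 48.0 and 46.1 CPM in cKO against 82.3, 73.2 and 79.6 CPM in flox libraries (-0.66 on the log2 scale, SE 0.08, adjusted p = 0.03). Col6a2, its partner chain in the fine fibrils of collagen VI, had 59.9, 54.7, 60.6 and 56.5 CPM in cKO against 88.9, 82.7 and 87.4 CPM in flox libraries (-0.58 on the log2 scale, SE 0.06, adjusted p = 0.015). Col14a1, a collagen on the surface of fibrils, had 29.5, 36.5, 33.9 and 32.1 CPM in cKO against 61.1, 50.4 and 57.2 CPM in flox libraries (-0.77 on the log2 scale, SE 0.10, adjusted p = 0.037). Every cKO value of these 3 lay below every flox value. At equal letter Col3a1 (-1.50, adjusted p = 0.017) and Col6a3 (-0.82, adjusted p = 0.046) were called as well. Col3a1 had 147, 167, 143 and 128 CPM in cKO against 511, 257 and 335 CPM in flox libraries. The list as a whole varied more: its sum was 2188, 2792, 2046 and 1968 CPM in the cKO libraries and 3337, 2253 and 3028 CPM in the flox libraries, with the groups overlapping. Dcn (0.04), Postn (0.06) and Col1a1 (-0.54) did not pass, and the median was -0.43 (-0.49 at equal letter). The collagen calls did not all stand when a library was left out, though every difference kept its sign. None of them stood without flox replicate 4, flox replicate 6, cKO replicate 4 or cKO replicate 6, with Col6a2 then at adjusted p = 0.068, 0.086, 0.064 and 0.054 and Col6a1 at adjusted p = 0.13, 0.15, 0.14 and 0.14. Contractile genes were also lower in cKO than in flox libraries. The 15 myelinating Schwann cell genes had a median of -0.30 (-0.53 at equal letter, with all 15 below 0). Of these 15, edgeR called 0, DESeq2 called 1 (Pmp2), and 4 had an unadjusted p under 0.05. Of all 16481 genes DESeq2 called 216, and 1088 had such a p. The Schwann sum was 7798, 12387, 7756 and 6949.6 CPM in the cKO libraries and 16002, 10548 and 10217 CPM in the flox libraries, with the groups overlapping. Within the flox group it was highest in replicate 4, the library with the lowest contractile sum. The part of either list in the collagen result was not tested.

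The remaining genes that fell have no shared list. Tia1, which encodes an RNA-binding protein of stress granules (chr6:86404219-86433405, plus strand), had 22.7, 22.4, 22.9 and 25.7 CPM in the cKO libraries and 59.99, 51.5 and 53.6 CPM in the flox libraries. Its groups were well apart, and the difference was -1.23 on the log2 scale (SE 0.08, adjusted p = 0.0033) and -1.23 (adjusted p = 0.0059) at equal letter. In the LDRG set the same gene stood at 20.1, 15.6 and 21.7 CPM in LDRG cKO and 17.4, 24.8 and 43.0 CPM in LDRG flox libraries, with the groups overlapping (-0.58). Csnk2a2, a catalytic subunit of casein kinase 2 (chr8:95446096-95490039, minus strand), had 26.8, 29.4, 28.7 and 28.2 CPM in cKO against 46.5, 44.7 and 43.9 CPM in flox libraries (-0.67 on the log2 scale, SE 0.06, adjusted p = 0.01), with little spread in either group, and -0.69 (adjusted p = 0.021) at equal letter. Its call ended without cKO replicate 6 (-0.68, adjusted p = 0.054). Itih5, a hyaluronan-binding protein of the matrix, had 74.7, 78.7, 80.6 and 75.5 CPM in cKO against 111, 104 and 104 CPM in flox libraries (-0.46 on the log2 scale, SE 0.05, adjusted p = 0.025). Its call ended on leaving out any 1 of the 7 libraries (-0.48 to -0.42, adjusted p = 0.051 to 0.12). Atp10d, a lipid flippase gene that GENCODE M21 lists as a polymorphic pseudogene in mouse, had 7.18, 7.31, 6.92 and 7.94 CPM in cKO against 21.9, 15.2 and 15.2 CPM in flox libraries (-1.25 on the log2 scale, SE 0.15, adjusted p = 0.03). Its call stood without flox replicate 4 (-1.05, adjusted p = 0.038) and ended without any other 1 of the libraries (adjusted p = 0.0501 to 0.14). Gabra2, a GABA-A receptor subunit, was called at equal letter only (-1.04, adjusted p = 0.013), with 41.3, 40.5, 43.5 and 37.3 CPM in cKO against 96.6, 70.8 and 63.3 CPM in flox libraries and no overlap.

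No gene of the sensory neuron lists passed the test. Of 19 NP1 genes edgeR called 0, DESeq2 0, and 9 had an unadjusted p under 0.05, all lower. Their median was -0.24 (-0.16 at equal letter), 18 of 19 lay below 0 where 47.6% of all genes did, and the sums were 3234, 2946, 3471 and 3727 CPM in the cKO libraries and 3417, 4077 and 3884 CPM in the flox libraries, which overlap. Wnt2b (-0.44), Prkcq (-0.36), Mrgprb5 (-0.45) and Agtr1a (-0.27) were among those with the smallest p. For 6 of the 19 every cKO library lay below every flox library, where the share of all genes was 4.3%. The NP2 and NP3 lists, neurons tied to itch, had medians of -0.26 and -0.11 with 0 of 8 and 0 of 13 called by edgeR or DESeq2, and 2 and 3 genes at an unadjusted p under 0.05. Among 29 genes of itch signalling edgeR and DESeq2 called 0, 6 had an unadjusted p under 0.05, and the median was -0.07.

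C-fibre low-threshold mechanoreceptors, which sense gentle touch, had the lowest median of the neuron lists, -0.30 (-0.26 at equal letter and -0.10 in the LDRG set). All 11 genes lay below 0, with 8 at an unadjusted p under 0.05 and 5 without overlap between groups, where of all genes 47.6% lay below 0, 1088 of 16481 had such a p and 4.3% were lower in every cKO library. EdgeR called 0 of them, and DESeq2 called 3 (Slc17a8, Cdh9 and Zfp521), where over all genes DESeq2 called 216 of 16481, 182 of them lower. Slc17a8, the vesicular glutamate transporter VGLUT3, had 16.1, 14.3, 17.0 and 21.1 CPM in cKO against 24.5, 30.6 and 27.4 CPM in flox libraries (-0.68 on the log2 scale, SE 0.14, adjusted p = 0.23). Cdh9, a cadherin, had 10.9, 11.3, 10.97 and 11.5 CPM in cKO against 15.7, 14.3 and 15.7 CPM in flox libraries (-0.45 on the log2 scale, SE 0.09, adjusted p = 0.18). Both were lower in every cKO library than in any flox library. The sum over the list was 1162, 1046, 1257 and 1361 CPM in the cKO libraries and 1278, 1590.4 and 1504 CPM in the flox libraries, higher in L than in C libraries of each genotype.

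Peptidergic nociceptor genes had a median of -0.04 (0.16 at equal letter) and large A-fibre genes of 0.05 (0.06 at equal letter), with 0 called by edgeR or DESeq2 in either, and 0 and 2 genes at an unadjusted p under 0.05. Snap25, a vesicle fusion protein of all neurons, had 1667, 1586, 1548 and 1437 CPM in cKO against 1271, 1314 and 1142 CPM in flox libraries (0.33, adjusted p = 0.36), higher in every cKO library, and Uchl1 stood at 0.29. Pan-neuronal genes had a median of 0.13 (0.08 at equal letter). For 3 of the 12 every cKO library lay above every flox library (3.54% of all genes), edgeR called 0 of the 12, and DESeq2 called Snap25 and Uchl1. Of all 16481 genes DESeq2 called 216, 34 of them higher. Scn3b, a beta subunit of sodium channels, had 80.2, 80.9, 88.3 and 93.1 CPM in cKO against 107, 121 and 120.1 CPM in flox libraries (-0.44, adjusted p = 0.12).

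**Figure D3:**
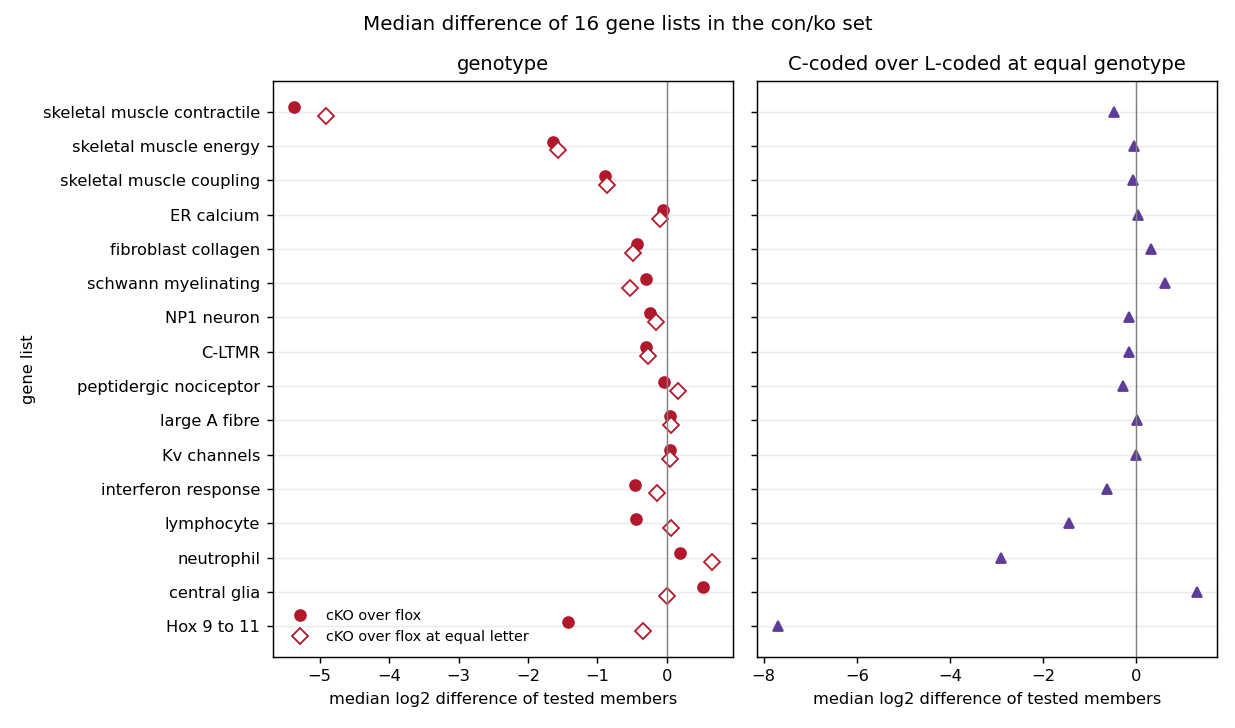
Median log2 difference of the tested members of 16 gene lists. Left: cKO over flox, filled circles without and open diamonds with the second letter as a term; right: C over L libraries at equal genotype. Contractile muscle genes lie at -5.38 for genotype and -0.48 for the letter, whereas Hox 9 to 11 genes lie at -7.69 for the letter.

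Between C-coded and L-coded libraries of the same genotype 223 genes were called (1.35% of those tested), 18 higher and 205 lower in C, and none of them was among the 40 called for genotype. Hox genes of the highest paralogue numbers, which mark the caudal part of the body axis, were among them. Hoxc10 had 0, 0, 0 and 10.9 CPM in cKO and 0, 9.49 and 10.1 CPM in flox libraries, so that it was found in the 3 L-coded libraries and at 0 counts in the 4 C-coded ones. Hoxa10 had 0, 0, 0.109 and 33.1 CPM in cKO against 0.173, 28.2 and 31.3 CPM in flox libraries. The 10 Hox 9 to 11 genes, 6 of them called between letters, summed to 15.1, 11.4, 11.5 and 137 CPM in the cKO libraries and 9.04, 119.5 and 131 CPM in the flox libraries. Their genotype median of -1.42 became -0.35 at equal letter, with 0 of 10 called for genotype by edgeR or DESeq2 and 0 at an unadjusted p under 0.05.

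Glial genes of the central nervous system went the other way. Mobp, a myelin protein of oligodendrocytes, had 39.9, 26.9, 56.1 and 1.83 CPM in cKO against 78.2, 1.29 and 2.94 CPM in flox libraries. Gfap, an astrocyte filament, had 17.7, 10.8, 17.2 and 2.42 CPM in cKO against 33.7, 1.69 and 3.20 CPM in flox libraries. Both were higher in all 4 C-coded libraries. The central glia median of 0.52 for genotype became 0.00 at equal letter. All 14 neutrophil genes were called lower in C (median -2.91), with sums of 349, 179, 283 and 3302 CPM in the cKO libraries and 275, 651 and 1679.9 CPM in the flox libraries, and S100a8, a calcium-binding protein of neutrophils, had 71.9, 33.9, 56.5 and 515 CPM in cKO against 48.8, 113 and 284 CPM in flox libraries. Interferon response genes had a genotype median of -0.45 that became -0.13 at equal letter, and their sum was highest in flox replicate 5, coded FL (664, 779.6, 654 and 766 CPM in the cKO libraries and 604, 1413 and 743 CPM in the flox libraries). EdgeR and DESeq2 called 0 of 34 of them for genotype, with 1 at an unadjusted p under 0.05.

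**Figure D4:**
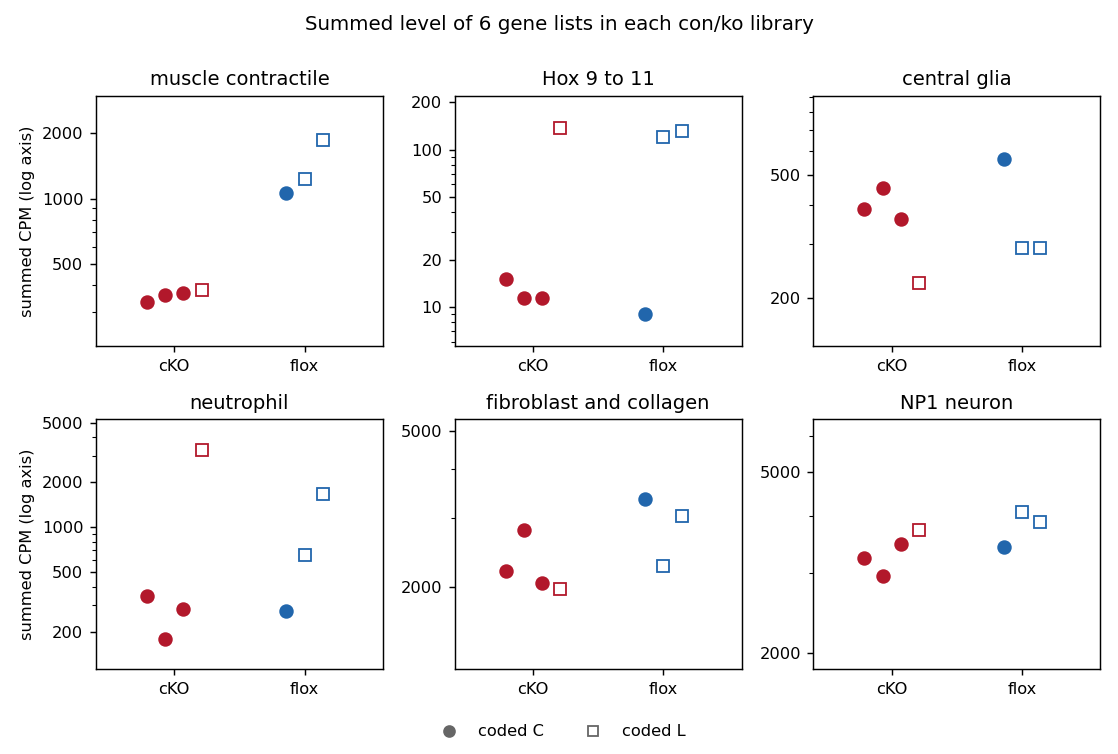
Summed CPM of 6 gene lists in each con/ko library on log axes, cKO left and flox right, with filled circles for C and open squares for L. Contractile genes separate the genotypes (380.4 CPM or below against 1057 or above), while Hox 9 to 11 genes separate the letters (15.1 CPM or below in C against 119.5 or above in L).

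The LDRG libraries, which no part of the con/ko fit used, were tested for the same genotypes (CPM there was scaled over all 13 untreated libraries). EdgeR called 3 of 16050 genes (0.0187%): Tmem45b, lower in cKO, and Scaf11 and H2ac18, higher. The call of Tmem45b was shared with the con/ko set, at 68.2, 73.3 and 60.5 CPM in LDRG cKO and 126, 134 and 146 CPM in LDRG flox libraries (-1.01, adjusted p = 0.028). The difference between the sets was -0.02 (SE 0.15, 95% interval -0.34 to 0.30). Of the 39 genes lower in con/ko cKO, 38 were tested in the LDRG set, 28 lying above 0 and 10 below. Acta1 had 108, 0.505 and 0.567 CPM in LDRG cKO and 8.81, 12.3 and 38.7 CPM in LDRG flox libraries. Of the 30 muscle genes 27 were highest in LDRG cKO replicate 1, while in 26 LDRG cKO replicates 2 and 3 lay below every LDRG flox library. The contractile median in that set was 0.31 with all 6 libraries and -3.58 without cKO replicate 1. In the latter fit 29 of 29 tested muscle genes lay below 0 and 1 was called. Replicate 1 was left out after the values were seen. The shares of all genes for these counts were not worked out, so the counts describe the muscle genes and add no support.

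Tested directly, the genotype difference of the con/ko set differed from that of the LDRG set for 1 of 16706 genes (0.00599%), Kcnb2, by 4.06 on the log2 scale (SE 0.18, adjusted p = 9.3e-07). An unadjusted p under 0.05 was found for 836 genes, where chance gives 835. None of the 30 muscle genes was called by edgeR, and 12 muscle genes were by DESeq2. The contractile median of the difference between sets was -5.55, and -1.76 without LDRG cKO replicate 1. Csnk2a2 (-0.54) and Atp10d (-1.29) came next, each with adjusted p = 0.12. The collagen list had a median of 0.01 in the LDRG set, with Col6a1 at 0.04 and Col14a1 at 0.16.

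**Figure D5:**
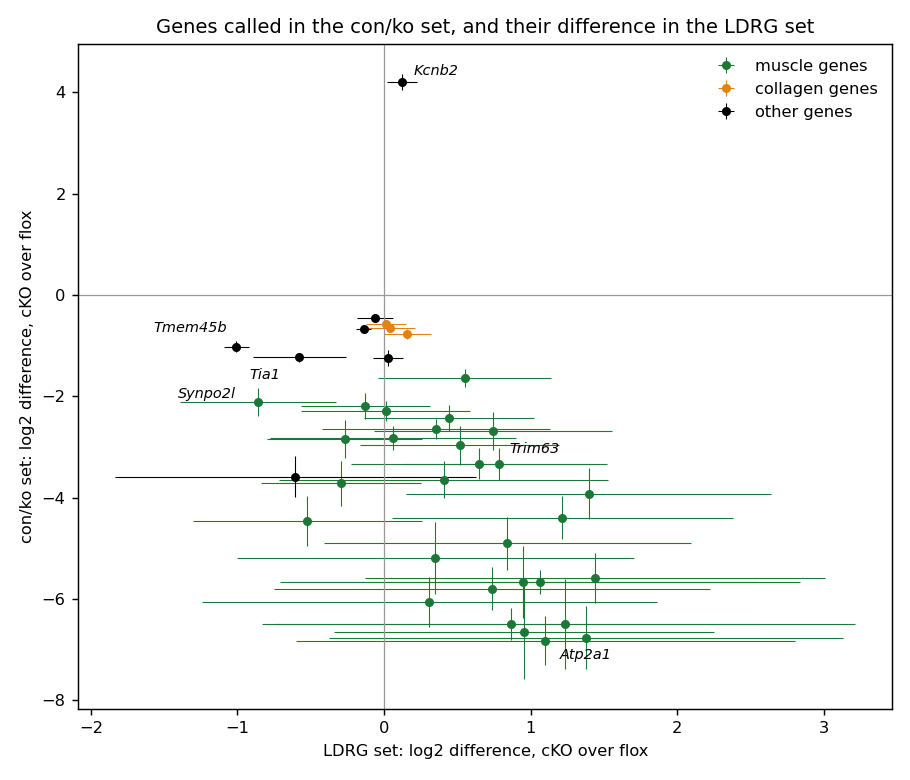
Log2 difference of cKO over flox in the con/ko set (vertical axis) and the LDRG set (horizontal axis) for genes called in the con/ko set and tested in both; bars are standard errors. Tmem45b lies near -1 on both axes and Kcnb2 at 4.20 in the con/ko set against 0.13 in the LDRG set, while the standard errors of most muscle genes reach over 0 in the LDRG set.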

How the data were processed

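RNA was measured in 7 con/ko libraries (4 cKO, 3 flox), and 6 LDRG libraries were used for comparison. Per the labels' protocols, RNA was extracted with TRIzol, selected with oligo(dT) beads, copied from random hexamers and read as paired 150-base reads on a T7 platform. Per the submitters' processing notes, fastp 0.23.2, BWA 2.2.1, SAMtools 1.14, DESeq2 1.40.2 and build mm10 were used; the counting tool, annotation and strand setting are not given in the sources used here. The deposited values are whole-number counts per gene (24512 genes), not normalized. Counts of 4 were commoner than counts of 3 (1779 against 1349 values), and whether reads or fragments were counted is not stated.

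From the counts, R 4.3.3 with edgeR 4.0.16 was run with filterByExpr (minimum count 10, total 15), TMM scaling, quasi-likelihood F tests and adjustment by Benjamini-Hochberg over all genes tested, calling genes at adjusted p under 0.05. Fits were genotype alone, genotype with the second letter, genotype in the LDRG libraries, and the difference between sets over 13 libraries and genes in both tables. CPM used TMM library sizes, over 7 libraries for the con/ko set and 13 for LDRG values. The scripts were tested on simulated data. Each SE was worked back from the log2 difference and the F statistic of its test, and the interval was built from that SE. Floors (3 counts over a group) cover counting error only, and the interval given rests on the spread between libraries.

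The libraries, gene lists and tests were chosen with earlier results of these data known, so lists are described by counts and medians and not tested. Named genes are Tmem45b and Mrgprd, the 10 largest rises and falls among called genes reaching a mean of 1 CPM in cKO or flox, genes called with and without the letter or between sets, and for each list its called members and up to 4 others with the smallest p. Others were picked with their values in view (Xist, Tmem45a, Tmem45a2, the calcium store genes that did not pass, Dcn, Postn, Col1a1, Hoxa10 and Hoxc10 among them, as well as genes called at equal letter only). A few genes are counted but not reported here by name. Positions are from GENCODE M21, which matched 23680 symbols (96.6%), and promoters from RefSeq. No pairing by replicate number is given in the sample labels, and the main fits used none. Same-numbered cKO and flox libraries correlated at 0.31, -0.10 and -0.07 over 12149 genes in their deviations (replicates 4, 5 and 6). Only in replicate 4 do both share the second letter, so these values cannot settle whether the numbers pair the samples. Alternatives were RLE size factors, DESeq2 1.42.0, other filters, the code letters as terms or strata, a replicate block, a spread shared over both sets, and leaving out each library; those of the letter fit and of the LDRG fit were added after the data were seen.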

Additional observations from a re-analysis of the deposited data

Results flagged for a closer look

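In 92 groups of 4 cKO values, of a named gene or of a list's summed CPM, 1 library stood apart from the other 3 by more than Dixon's 95% critical value in 12 cases; chance alone gives about 1 in 20. In 6 of these the library was cKO replicate 7, the only cKO library coded L. It had the highest sums for neutrophil genes (3302 CPM), macrophage genes (364 CPM), lymphocyte genes (151 CPM) and Hox 9 to 11 genes (137 CPM), and the lowest for heat shock genes (5336 CPM). It also had the highest level of Tia1 within cKO (25.7 CPM), still below every flox library. In 4 cases the library was cKO replicate 5: it had the highest level of Pmp22 (2821 CPM) and the highest sum for myelinating Schwann cell genes (12387 CPM), the lowest sum for large A-fibre genes (12046 CPM) and the lowest Mylk4 (0.124 CPM). Trim63 was lowest in cKO replicate 4 (0.132 CPM), and nerve injury genes had their highest sum in cKO replicate 6 (1136 CPM).

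The genotype difference of Kcnb2 in the con/ko set exceeded that in the LDRG set by 4.06 on the log2 scale, by the test of the difference itself.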

How the results depend on the processing

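All 40 calls kept their sign wherever they could be fitted, under every alternative run. Their number was 40 and became 216 with DESeq2 (182 lower, 63 of them muscle genes), 25 with both letters as terms, 16 among F libraries, 21 among L libraries, 10 with the replicate block and 7 with a spread shared with the LDRG libraries (2 of them muscle genes), and 19 to 37 without each library in turn. The number at equal letter (49) became 220 with DESeq2 and 17 to 72 without each library. The 1 call of the difference between sets became 43 with DESeq2, 2 with the letter as a term, 4 with the replicate block and 1 to 5 without each library. The 3 calls of the LDRG set became 49 with DESeq2, 0 with the replicate block in edgeR (762 genes at an unadjusted p under 0.05) and 3 to 11 without each library. Tmem45b was -1.002 among F, -0.98 among L and -0.94 among C libraries, -1.06 with the replicate block (adjusted p = 0.051) and -1.07 to -0.94 without each library. Kcnb2 kept its call with the block (adjusted p = 0.014). The cause of these changes was not tested, except that letter strata and left-out libraries leave fewer samples. With 3 or 4 libraries a group and 53.36 M to 65.64 M counts each, a gene that did not pass is not shown to be unchanged.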

Other observations

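Glucocorticoid response genes, a list induced by stress hormones through their nuclear receptor, lay below 0 for 13 of 14 tested in cKO over flox libraries (median -0.19, and -0.46 at equal letter), where 47.6% of all genes did. Their median for C over L was 0.37. The sums overlapped, at 867, 905, 785 and 794 CPM in the cKO libraries and 1090, 907 and 828 CPM in the flox libraries. EdgeR called 0 of these genes for genotype, 4 had an unadjusted p under 0.05, and DESeq2 called 1, Fkbp5, a chaperone that dampens the receptor. Of all 16481 genes, 1088 had such a p and DESeq2 called 216. Fkbp5 had 69.5, 65.7, 63.3 and 58.2 CPM in cKO libraries against 73.8, 109.9 and 97.8 CPM in flox libraries (-0.55 on the log2 scale, adjusted p = 0.34). Rgs5, a marker of pericytes, the contractile cells around small vessels, had 158, 161, 161 and 192 CPM in cKO libraries against 213, 219 and 222 CPM in flox libraries, without overlap (-0.38, adjusted p = 0.23), and stood at -0.33 in the LDRG set. Among the 15 smooth muscle and pericyte genes it was called by DESeq2 and not by edgeR. These genes were chosen after their values were seen.

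Kcnb2 was also high in 2 of the 14 libraries outside the con/ko set, both of the CFA model: cKO replicate 4 at 276.5 CPM and flox replicate 1 at 243 CPM (scaled by plain totals). The other 12 lay between 8.35 and 10.6 CPM, so that among those libraries the high level was found in both genotypes.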
